A study of Mus musculus with 12 samples.

Results

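The genes of homologous recombination and of the DNA damage response were followed in hair follicle stem cells (HFSCs), the quiescent cells of the bulge that renew the mouse hair follicle. The members were 33 genes taken from a list given by name: Brca1 and its partners, the strand exchange factors, the end resection factors, enzymes that process joined DNA, genes of the Fanconi anemia pathway, the checkpoint kinases with Topbp1, the histone variant H2afx, and Msh6. All 33 were found among the 17885 genes of one table and the 21915 genes of the other, H2afx under its newer symbol H2ax in the second, where it was matched by gene identifier. The HFSCs were sorted from back skin by CD34, EpCAM and high α6-integrin, without Sca1, and RNA was sequenced in 12 libraries of strain C57BL/6J, 3 for each condition. The hair cycle table holds wildtype HFSCs in anagen, the growth phase (postnatal day 28 to 30), and in telogen, the resting phase (postnatal day 50 to 52). The other table holds HFSCs at postnatal day 70 from control mice, labelled wildtype and given ethanol, and from Eed iKO mice, labelled Eed -/- and given RU-486 in ethanol, so the drug and the genotype cannot be told apart. The Eed iKO mice carry K15-CrePGR, a Cre driven by a keratin 15 promoter and activated by topical RU-486, with Eed flanked by loxP sites, Eed being part of the core of Polycomb Repressive Complex 2 (PRC2), so recombination is limited to cells in which that promoter was active.

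Homologous recombination repairs a broken chromosome by copying the sister chromatid, and so works mainly in cells that have replicated their DNA. The broken end is first trimmed, a recombinase is then loaded on the single strand with the help of the BRCA proteins, and the joined molecules are later resolved. The Fanconi pathway removes links between the 2 strands of DNA and hands the resulting breaks to the same machinery, while the kinases ATM and ATR sense damage and stop the cell cycle through CHK2 and CHK1. Bulge HFSCs divide briefly as anagen starts and rest through telogen.

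The question of the first comparison was which genes differ between growing and resting HFSCs. Of the 33 members, 10 were higher in anagen at an adjusted p under 0.05 and 0 were lower (limma on log2(normalized count + 1), with Benjamini-Hochberg adjustment over 13457 genes). Among all genes tested, 7.22% were higher and 4.35% were lower by the same rule. The 10 members were Brca1, Bard1, Eme1, Chek1, Fancd2, H2afx, Rad51ap1, Brip1, Rad54b and Topbp1, of which Eme1 was tested through its anagen libraries alone, and 9 of 32 were called without it. For 16 members every library of one phase lay beyond every library of the other, of which 13 were higher in anagen and 3 lower, against 18.1% and 15.2% of all genes. The median log2 fold change was 0.26 over the members and 0.01 over all genes, and 21 of the 33 values were above 0. Under the thresholds of the study's methods (a log2 fold change over 2 with an unadjusted p under 0.05), 10 members were higher, with Exo1 in and Topbp1 out, against 3.33% of all genes. The count fell to 5 without anagen replicate 1, where Eme1, Rad51ap1, Rad54b, Topbp1 and H2afx lost their calls, and to 6 without anagen replicate 2, where the first 3 and H2afx did. Fold changes on this scale understate the change of genes with few reads, and the age of the mice and the phase of the cycle cannot be told apart.

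**Figure D1:**
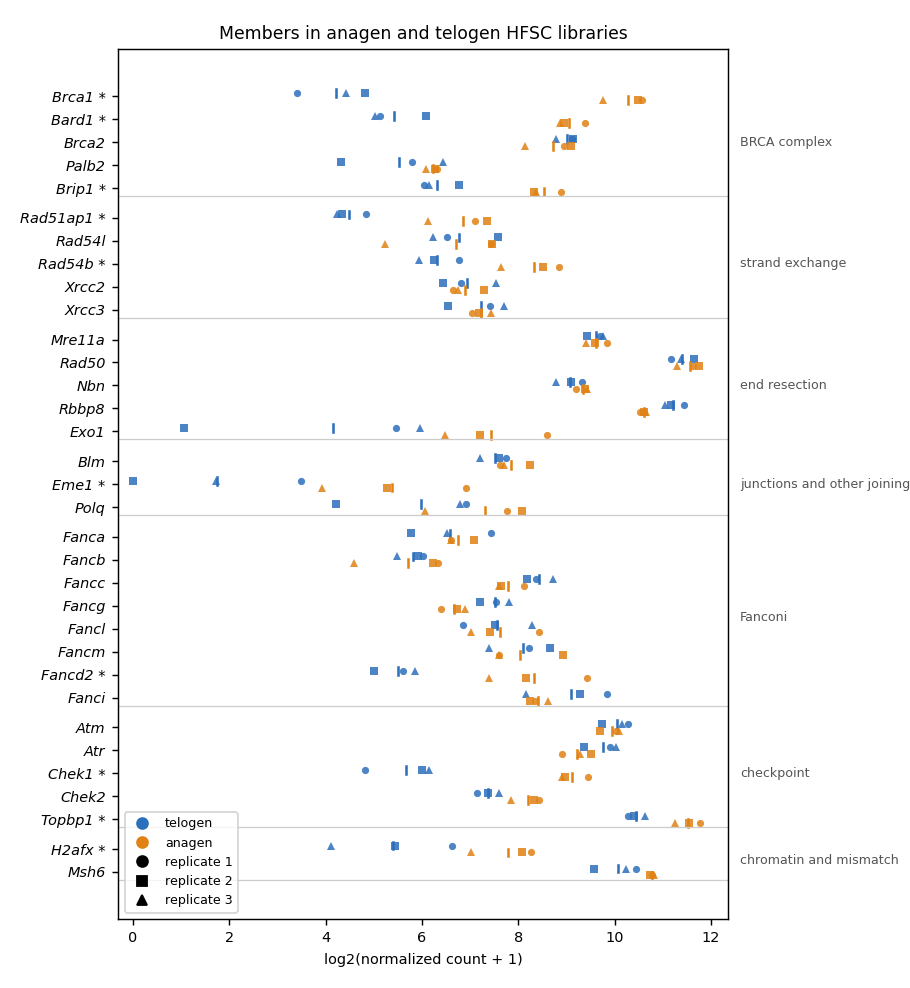
Normalized counts of the 33 members on a log2(value + 1) axis in the 3 telogen (blue) and 3 anagen (orange) libraries, grouped by role, with vertical bars at the group means. Asterisks mark the 10 members with an adjusted p under 0.05, and Brca1 shows the widest gap between the groups.

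The promoters of members with the largest and the smallest measured fold changes between the phases are shown side by side. They span 250 bases before to 50 bases after the annotated start in RefSeq (GRCm38.p6), which held 25 of the 33 members. Brca1 (chr11:101551906-101552205, minus strand), Bard1 (chr1:71102923-71103222, minus strand) and Eme1 (chr11:94653694-94653993, minus strand) had the largest absolute log2 fold changes among the members held there. The Eme1 value comes from a gene tested through its anagen libraries alone. Xrcc3 (chr12:111813830-111814129, minus strand), Mre11a (chr9:14784404-14784703, plus strand) and Fancm (chr12:65075353-65075652, plus strand) had the smallest. Their 95% intervals were -0.84 to 0.85, -0.50 to 0.47 and -1.01 to 0.90, so a change in these genes is not excluded. Capitals mark 3 motifs on either strand: E2F sites (TTT, then 2 of C or G, then CGC), the cell cycle homology region (TTTGAA or TTCGAA) and the CCAAT box (CCAAT).
Brca1: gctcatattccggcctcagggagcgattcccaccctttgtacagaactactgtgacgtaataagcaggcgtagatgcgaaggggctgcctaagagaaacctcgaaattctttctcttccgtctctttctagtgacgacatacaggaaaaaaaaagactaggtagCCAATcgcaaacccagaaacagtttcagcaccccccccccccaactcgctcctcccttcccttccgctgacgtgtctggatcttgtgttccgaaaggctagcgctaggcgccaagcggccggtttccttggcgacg
Bard1: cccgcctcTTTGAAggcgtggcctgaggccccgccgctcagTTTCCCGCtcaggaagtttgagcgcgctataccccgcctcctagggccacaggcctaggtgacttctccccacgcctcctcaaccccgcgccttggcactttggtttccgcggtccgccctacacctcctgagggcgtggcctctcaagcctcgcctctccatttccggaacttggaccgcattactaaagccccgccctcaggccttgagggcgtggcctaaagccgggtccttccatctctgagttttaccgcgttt
Eme1: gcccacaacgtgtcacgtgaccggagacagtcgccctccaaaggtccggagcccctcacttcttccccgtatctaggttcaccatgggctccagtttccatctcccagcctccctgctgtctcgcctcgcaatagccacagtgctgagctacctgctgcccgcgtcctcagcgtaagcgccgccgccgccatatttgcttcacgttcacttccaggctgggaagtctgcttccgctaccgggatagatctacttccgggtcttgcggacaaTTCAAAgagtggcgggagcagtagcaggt
Xrcc3: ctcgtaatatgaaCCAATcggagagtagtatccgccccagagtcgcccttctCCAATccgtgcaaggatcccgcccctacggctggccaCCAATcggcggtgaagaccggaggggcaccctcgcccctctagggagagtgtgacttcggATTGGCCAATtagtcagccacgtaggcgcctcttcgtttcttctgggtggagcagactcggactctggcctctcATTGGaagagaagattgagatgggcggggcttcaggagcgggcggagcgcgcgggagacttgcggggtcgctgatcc
Mre11a: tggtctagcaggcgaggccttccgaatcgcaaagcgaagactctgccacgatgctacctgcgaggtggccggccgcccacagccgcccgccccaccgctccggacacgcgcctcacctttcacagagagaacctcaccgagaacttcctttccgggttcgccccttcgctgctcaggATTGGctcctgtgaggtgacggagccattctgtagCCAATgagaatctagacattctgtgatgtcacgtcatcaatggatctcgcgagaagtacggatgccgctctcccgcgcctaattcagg
Fancm: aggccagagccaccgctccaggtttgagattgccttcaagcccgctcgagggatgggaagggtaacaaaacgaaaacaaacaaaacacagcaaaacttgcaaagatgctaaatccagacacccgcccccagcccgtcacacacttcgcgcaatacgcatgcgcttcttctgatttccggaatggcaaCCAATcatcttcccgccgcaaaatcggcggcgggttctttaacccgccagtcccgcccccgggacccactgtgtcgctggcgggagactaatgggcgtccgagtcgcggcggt
An E2F motif was present in 6 of the 25 member promoters (Bard1, Brca2, Fancg, Chek2, Topbp1 and Msh6), against 2.26% of the 32851 promoter windows of the same length. The cell cycle homology region was found in 4 (Bard1, Eme1, Polq and Atr), against 19.2% of windows, and the CCAAT box in 15, against 37.4%. A member was counted where any of its windows held the motif, while the percentages are over single windows. The 2 measures are therefore not alike for a gene with several windows. Bard1 held an E2F motif and a homology region, 209 and 242 bases before its start. The Xrcc3 window, with a log2 fold change of 0.00 between the phases, held 6 CCAAT boxes on the 2 strands and the Brca1 window 1, and 2 of the 7 called members with a promoter held an E2F motif. The motifs did not overlap one another in the 6 windows, and a match describes letters only.

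BRCA1, with its obligate partner BARD1, is a ubiquitin ligase that directs broken ends to recombination. Brca1 had normalized counts of 9.59, 27.1 and 20.6 in telogen replicates 1, 2 and 3, and of 1507, 1443 and 861 in anagen replicates 1, 2 and 3. Every anagen library was far above every telogen library, and the mean was 66.5-fold higher (log2 fold change 6.05 ± 0.43, SE, limma adjusted p = 2.83e-05). Bard1 had 34.0, 66.7 and 31.7 in telogen and 663, 491 and 467 in anagen, a mean 12.3-fold higher (log2 3.65 ± 0.38, limma adjusted p = 0.000207). Its groups were also well apart. BRIP1 is a helicase that binds BRCA1, and Brip1 rose from 65.2, 108 and 69.9 to 474, 319 and 331 (log2 2.21 ± 0.35, limma adjusted p = 0.0027). These 3 calls held with each library left out in turn.

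BRCA2 loads the recombinase on single-stranded DNA and PALB2 joins it to BRCA1. Brca2 had 553, 564 and 441 in telogen and 494, 547 and 281 in anagen (log2 -0.29 ± 0.29, limma adjusted p = 0.571, 95% interval -0.93 to 0.36). Its libraries overlapped, in the same samples in which Brca1 was higher. Palb2 had 54.5, 19.0 and 85.8 in telogen and 79.0, 76.0 and 67.1 in anagen (log2 0.71 ± 0.57, 95% interval -0.54 to 1.95), with overlap.

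Among the strand exchange factors, RAD51AP1 stimulates strand invasion and RAD54B is a DNA translocase of the same step. Rad51ap1 had 27.8, 19.2 and 17.997 in telogen and 136, 163 and 68.9 in anagen (log2 2.38 ± 0.51, limma adjusted p = 0.0127). Rad54b had 109, 74.8 and 60.0 in telogen and 456, 366 and 198 in anagen (log2 2.01 ± 0.40, limma adjusted p = 0.00974). Of the exon bases of Rad54b, 35.9% lie under other annotated exons, among them those of Fsbp on the same strand, so part of its count may belong to that gene. Rad54l, the other translocase of the family, had 91.4, 190 and 74.2 in telogen and 172, 174 and 36.5 in anagen, with full overlap (log2 -0.08 ± 0.62). Of its exon bases, 15.4% lie opposite those of Lrrc41. Xrcc2 and Xrcc3, paralogs of the recombinase, stayed within their spread, from 85.7 to 185 against 99.6 to 155 for Xrcc2 and from 92.6 to 206 against 131 to 173 for Xrcc3.

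End resection begins with the MRE11, RAD50 and NBN complex and its cofactor RBBP8 and is extended by EXO1. The 3 complex genes had log2 fold changes of -0.01 (Mre11a), 0.15 (Rad50) and 0.26 (Nbn), each with overlapping libraries, and Rad50 was at 2313, 3226 and 2660 in telogen and 3176, 3428 and 2495 in anagen. Rbbp8 went the other way, with 2763, 2289 and 2101 in telogen and 1477, 1569 and 1608 in anagen. Its groups did not overlap, and the difference missed the threshold (log2 -0.61 ± 0.19, limma adjusted p = 0.0577). Exo1 had 43.4, 1.08 and 61.0 in telogen and 387, 147 and 88.8 in anagen. All anagen values exceeded all telogen values, but telogen replicate 2 stood far below the other two and the error was wide (log2 3.27 ± 1.09, limma adjusted p = 0.0793).

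EME1 is the partner of the MUS81 nuclease, BLM is a helicase that dissolves joint molecules, and POLQ joins ends by short homologies. Eme1 was listed at 10.2, 0 and 2.32 in telogen and had 120, 37.6 and 14.3 in anagen (log2 3.63 ± 1.03, limma adjusted p = 0.0443). Only 1 of its 3 telogen libraries reached the count minimum of the filter, so its call is not counted as support. The call was lost with each library left out except telogen replicate 1, at adjusted p up to 0.226 (without anagen replicate 1). Blm had 212, 194 and 146 in telogen and 195, 301 and 207 in anagen, and Polq had 119, 17.6 and 110 against 217, 270 and 65.8. The libraries of both overlapped.

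FANCD2 and FANCI form the clamp that is marked with ubiquitin by the Fanconi core complex. Fancd2 had 47.9, 31.4 and 57.1 in telogen and 683, 286 and 167 in anagen, 8.33-fold higher in the mean (log2 2.83 ± 0.51, limma adjusted p = 0.00559). Its partner Fanci had 916, 625 and 287 in telogen and 325, 301 and 391 in anagen (log2 -0.70 ± 0.38, limma adjusted p = 0.260). Fanci was lower in anagen at an adjusted p of 0.0338 only in the fit without telogen replicate 3, and 16.0% of its exon bases lie opposite those of Polg, which this unstranded library type could not separate. The core complex genes did not pass the test. Fancg had 186, 147 and 224 in telogen and 83.1, 105 and 118 in anagen (log2 -0.85 ± 0.35, limma adjusted p = 0.146), and Fancc had 327, 290 and 423 against 277, 199 and 193 (log2 -0.64 ± 0.29, limma adjusted p = 0.188). Both were without overlap between the groups. Of the exon bases of Fancc, 18.6% lie opposite other annotated exons, with the same limit as for Fanci. Fanca, Fancb, Fancl and Fancm, the last a translocase that anchors the core complex, had log2 fold changes between -0.09 and 0.18, all with overlapping libraries.

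In the checkpoint group, TOPBP1 activates ATR, which in turn activates CHK1. Chek1 had 27.4, 63.0 and 70.3 in telogen and 695, 502 and 481 in anagen, 10.4-fold higher in the mean (log2 3.45 ± 0.41, limma adjusted p = 0.000422). Topbp1 had 1234, 1358 and 1577 in telogen and 3479, 2987 and 2456 in anagen (log2 1.09 ± 0.20, limma adjusted p = 0.00627). Both were apart in every library, though Topbp1 missed the threshold narrowly without anagen replicate 1 (adjusted p = 0.0511). Atr and Atm themselves were not called. Atr had 953, 654 and 1050 in telogen and 477, 726 and 620 in anagen (log2 -0.54 ± 0.26), and Atm had 1245, 848 and 1139 against 1045, 824 and 1088 (log2 -0.12 ± 0.23). Chek2 had 141, 165 and 193 in telogen and 342, 319 and 230 in anagen, without overlap and short of the threshold (log2 0.82 ± 0.31, limma adjusted p = 0.110).

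H2AX is the histone variant phosphorylated around breaks and MSH6 recognizes mismatched bases. H2afx had 97.1, 42.2 and 16.4 in telogen and 309, 269 and 129 in anagen (log2 2.40 ± 0.61, limma adjusted p = 0.0291). Leaving out 1 library at a time removed its call in 4 of 6 cases, with adjusted p up to 0.131 (without anagen replicate 1). Msh6 had 1390, 757 and 1199 in telogen and 1746, 1704 and 1801 in anagen (log2 0.70 ± 0.24, limma adjusted p = 0.0874), with no overlap, and passed only without telogen replicate 1 (adjusted p = 0.0315).

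Members that act as partners differed in how far they moved. Per kilobase of the longest coding transcript, the Brca1 to Brca2 ratio of normalized counts was 0.0283, 0.0785 and 0.0762 in telogen and 4.98, 4.30 and 5.005 in anagen. In telogen Brca1 was the lower of the pair in each library, and in anagen the higher in each. The Fancd2 to Fanci ratio went from 0.0441, 0.0423 and 0.168 to 1.77, 0.802 and 0.360, the Chek1 to Chek2 ratio from 0.116, 0.229 and 0.219 to 1.22, 0.944 and 1.25, and the Rad54b to Rad54l ratio from 1.26, 0.414 and 0.853 to 2.79, 2.22 and 5.73. The Bard1 to Brca1 ratio moved the opposite way, from 4.12, 2.86 and 1.79 to 0.511, 0.395 and 0.630, since Brca1 rose further than Bard1. The libraries of the phases did not overlap in any of these ratios and overlapped for Brip1 to Palb2. The pairs were chosen after the values were seen, so they are given without a test.

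**Figure D2:**
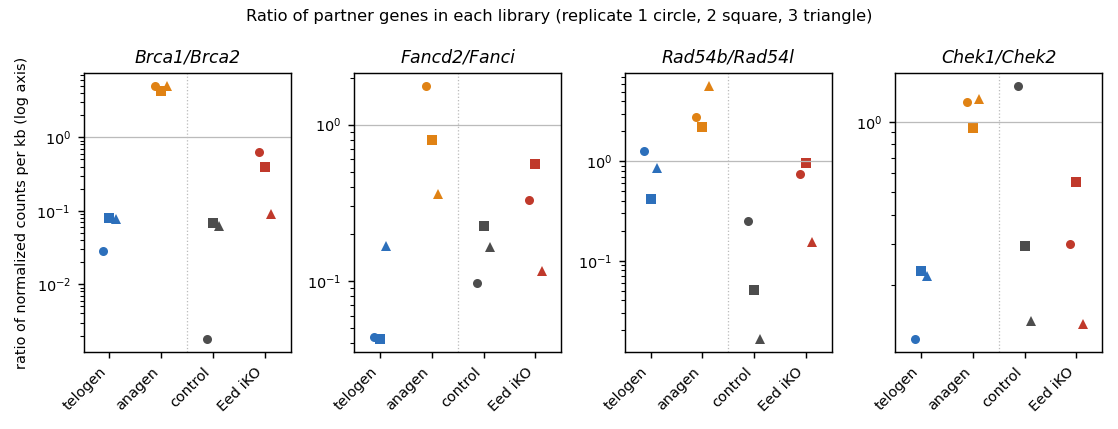
Ratio of the length-scaled normalized counts of 4 gene pairs in each library on log axes, with replicates 1, 2 and 3 as circles, squares and triangles and a horizontal line at a ratio of 1. The Brca1 to Brca2 ratio lies below 0.1 in every telogen library and above 4 in every anagen library.

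Levels of different members were compared per kilobase. In telogen the order of levels ran from Rbbp8 (677 normalized counts per kb) and Rad50 (530) down to Exo1 (4.51), Brca1 (2.91) and Eme1 (1.71). In anagen Rad50 (589) and Topbp1 (569) led, Brca1 stood sixth at 193 and Chek1 eighth at 147, and Palb2 (19.7) and Fancb (19.8) were at the foot. Rad50 and Topbp1 in anagen, Palb2 and Fancb in anagen, and Exo1, Brca1 and Eme1 in telogen, differed in level from one another by less than the larger SD of their libraries.

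The members called in anagen followed a common order among the anagen libraries. Of the 10, 9 were highest in replicate 1 and 9 lowest in replicate 3. Mki67 and Top2a, markers of cycling cells, stood in the same order, with 14954, 12975 and 10404 for Mki67 and 9798, 7469 and 4716 for Top2a in anagen replicates 1, 2 and 3. In telogen Mki67 was at 421, 431 and 276 and Top2a at 349, 132 and 265. All 12 proliferation markers examined were higher in anagen (median log2 fold change 4.47), and their summed normalized count was 2289 to 3591 in telogen and 22644 to 36888 in anagen. Bub1, at 3.33, 4.42 and 5.11 in telogen, was under the count minimum of the filter there and was tested through its anagen libraries alone. Plk1 (0.967, 1.11 and 27.8 in telogen) and Aurka (2.74, 9.46 and 34.7) reached that minimum in telogen replicate 3 only. The calls of Bub1, Plk1 and Aurka are not counted as support. The part of cycling cells in the member differences was not tested, and in bulk RNA more cells that express a gene and more RNA per cell cannot be told apart.

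Markers of other cells also differed. Of 11 bulge markers, Itga6 was higher and Cd34 lower in anagen, both of them genes of the sort, and all 11 were measured in every group. Melanocyte markers summed to 81.3 to 160 in telogen and 437 to 803 in anagen, where Dct was higher, and fibroblast markers to 48.0 to 115 and 263 to 456, where Col1a1 and Dcn were higher. Dcn, at 0, 0.64 and 1.47 in telogen, was tested through its anagen libraries alone, so its call is not counted as support. Matrix progenitor markers summed to 542 to 788 in telogen and 233 to 430 in anagen, where Msx2 was lower (log2 -1.60 ± 0.31, limma adjusted p = 0.00806). Msx2 alone was at 469, 434 and 315 in the telogen libraries. Of the 5 matrix progenitor markers, 2 had a log2 fold change above 0, up to 2.00, and these did not pass the test. Sebaceous markers summed to 165 to 414 in telogen and 82.9 to 113 in anagen, with 0 of 2 tested genes passing the test. The part of these cells in the member differences was not tested. Immune markers summed to 119 to 363 in telogen and 85.5 to 120 in anagen, and endothelial Cdh5 was listed at 0 in every hair cycle library. The telogen libraries differed in the bulge sum, which was 236658 in replicate 1 and 626942 and 531766 in the other two.

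Genes of neighbouring repair pathways, from lists written with earlier results known, were set beside the members. Of 39 other recombination and Fanconi genes tested, 7 were higher in anagen and 2 lower. The shares over all genes, for this list and for those below, were 7.22% higher and 4.35% lower. The largest were Hrob, which loads a helicase in recombination, at 2.70, 8.79 and 1.76 in telogen and 44.4, 43.4 and 59.0 in anagen (log2 3.41 ± 0.70), and Fignl1, an ATPase of recombination (log2 3.02 ± 0.63). Hrob was under the count minimum of the filter in every telogen library. It was tested through its anagen libraries alone, and its call is not counted as support. Rad18 and Gen1 both rose by 1.34 on the log2 scale. Slx1b, a subunit of a structure-specific nuclease (log2 -1.52 ± 0.36), and Wdr48, the cofactor of the deubiquitinase USP1 that acts on FANCD2 (log2 -0.82 ± 0.24), were lower. Usp1, named after its values were seen, was higher (log2 1.22 ± 0.22, limma adjusted p = 0.00513). Of 20 other genes of ATR and ATM signalling, 3 were higher, namely Wee1 (log2 1.64 ± 0.31), Clspn (1.57 ± 0.42) and Tipin (1.48 ± 0.25). Of the genes of nonhomologous end joining, 1 of 15 tested was higher (Xrcc4, 1.33 ± 0.32), and of nucleotide excision repair 1 of 18 (Ddb1, 0.81 ± 0.22). In base excision repair 2 of 16 were higher, the uracil glycosylase Ung from 26.2, 147 and 51.4 to 1961, 946 and 965 (log2 4.35 ± 0.54) and the glycosylase Neil3 (3.78 ± 0.64). None of the genes in these 3 lists or in ATR and ATM signalling was lower at this threshold. Median log2 fold changes were 0.27, 0.20, 0.35, -0.06 and 0.19 for the other recombination and Fanconi genes, signalling, end joining, nucleotide excision and base excision lists, beside 0.26 for the members.

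The second comparison asked how loss of PRC2 in resting HFSCs bears on gene expression. At an adjusted p under 0.05, 0 of the 33 members differed between the libraries labelled Eed iKO and control, where 0.0267% of the 15008 genes tested did (limma). At an unadjusted p under 0.05, 3 members were higher (Brca1, Topbp1 and Msh6) and 1 lower (Fancg), against 8.38% and 6.33% of all genes. The count at an adjusted p under 0.05 was 0 with edgeR and 2 with DESeq2, both run on recovered reads, where DESeq2 called 4.53% of all genes. The libraries did not overlap for 3 members that were higher (Nbn, Topbp1 and Msh6) and 3 that were lower (Fancg, Rad54l and Xrcc3), against 10.2% and 10.0% of all genes. The median log2 fold change was 0.13, beside 0.00 over all genes, and 23 of 33 values were above 0. The median was 0.04 without Eed iKO replicate 2, 0.05 without control replicate 3 and 0.29 without Eed iKO replicate 3. Eed itself had 1084, 1249 and 950 in control and 933, 1361 and 1001 in the libraries labelled Eed iKO (log2 -0.01 ± 0.22, limma adjusted p = 0.993). Eed mRNA was thus not lower in those libraries, which are called Eed iKO here by their label, and directions given for them rest on that label. The study itself reports lower Eed mRNA by RT-qPCR in HFSCs isolated from Eed iKO mice. It also reports loss of H3K27me3, the histone mark set by PRC2, by immunofluorescence at postnatal day 70. Those measurements were not used here.

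**Figure D3:**
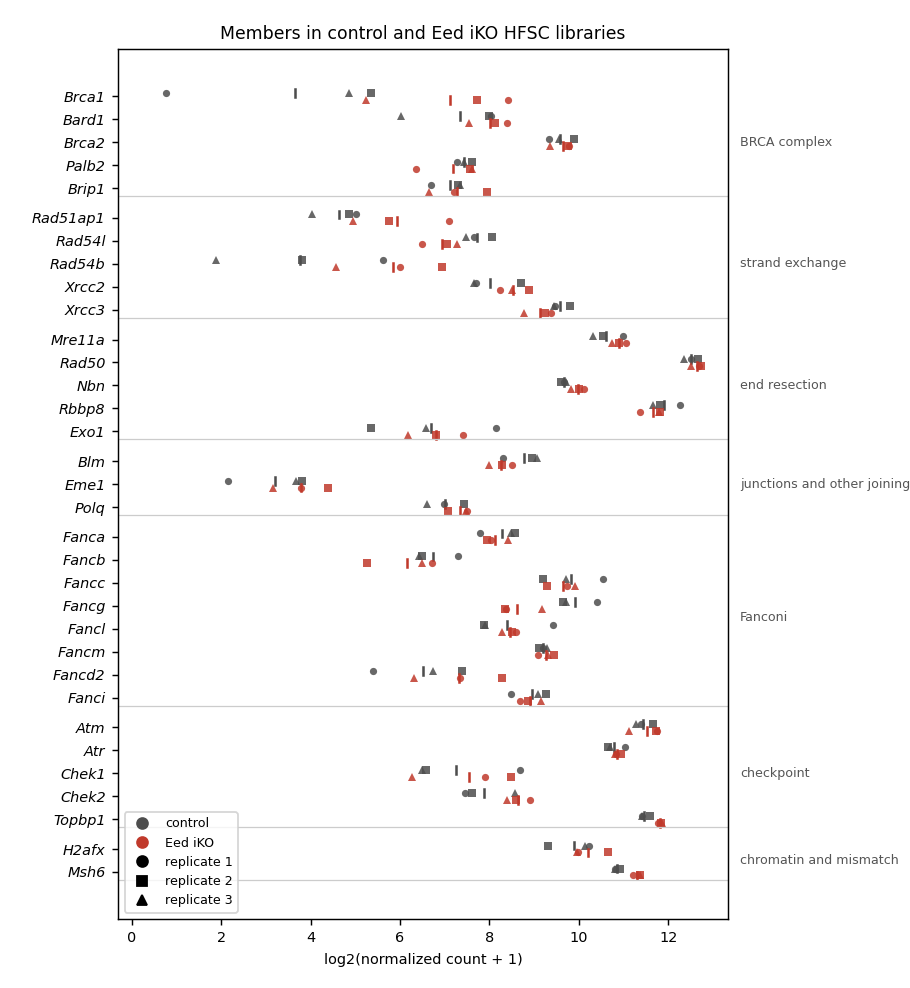
Normalized counts of the 33 members on a log2(value + 1) axis in the 3 control (grey) and 3 Eed iKO (red) libraries, grouped by role, with vertical bars at the group means. No member carries an asterisk, since 0 passed an adjusted p of 0.05, and the widest spread within groups is at Brca1 and Rad54b.

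Brca1 had the largest log2 fold change of the members with all libraries in the fit, with an error to match. It was at 0.694, 40.1 and 28.1 in control replicates 1, 2 and 3 and at 342, 211 and 36.6 in Eed iKO replicates 1, 2 and 3. Eed iKO replicate 3 lay below control replicate 2, so the groups overlapped, and control replicate 1 held 1 read of Brca1 where the other control libraries held 37 and 31. The log2 fold change was 3.47 ± 1.22 (limma adjusted p = 0.222, 95% interval 0.78 to 6.15). It passed the study's thresholds (a log2 fold change over 1.5 with an unadjusted p under 0.05), as did 1.75% of all genes, and DESeq2 gave 3.10 at an adjusted p of 0.0297. Without control replicate 1 the value was 2.02 (limma adjusted p = 0.337), and Rad54b, at 2.98, was then the largest. Its partner Bard1 had 262, 252 and 64.4 in control and 333, 279 and 186 in Eed iKO libraries, and Brca2 had 640, 948 and 750 against 884, 870 and 652.

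Fancg, a core complex gene, was the member with the smallest adjusted p. It had 1366, 803 and 835 in control and 328, 324 and 577 in the libraries labelled Eed iKO. Each of these was below each control library (log2 -1.30 ± 0.31, limma adjusted p = 0.120), with an adjusted p of 0.00535 in DESeq2 and of 0.0394 in limma without Eed iKO replicate 3. The other core genes had overlapping libraries, with log2 fold changes from -0.58 (Fancb) to 0.07 (Fancm). Fancd2 had 40.9, 166 and 106 in control and 161, 309 and 78.1 in Eed iKO, while Fanci had 355, 617 and 545 against 412, 463 and 565.

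Topbp1 and Msh6 were slightly and evenly higher in the libraries labelled Eed iKO. Topbp1 had 2718, 3087 and 2706 in control and 3499, 3643 and 3698 in Eed iKO (log2 0.35 ± 0.14, limma adjusted p = 0.276). Msh6 had 1795, 1950 and 1801 against 2357, 2635 and 2623 (log2 0.46 ± 0.15, limma adjusted p = 0.197). Both had narrow spreads and no overlap. Nbn had 808, 774 and 842 against 1116, 1031 and 906. Chek1 was at 412, 95.3 and 88.9 against 238, 357 and 76.1, with overlap. Chek2 was at 173, 195 and 380 against 478, 388 and 336, where 2 of the 3 Eed iKO libraries lay above every control library (log2 0.76 ± 0.37, limma adjusted p = 0.373). Atm and Atr had log2 fold changes of 0.09 and 0.06.

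The strand exchange members did not share a direction. Rad54b had 47.9, 12.9985 and 2.72 in control and 63.4, 121 and 22.7 in Eed iKO (log2 2.06 ± 1.01, limma adjusted p = 0.373), and Rad51ap1 had 31.2, 28.2 and 15.4 against 137, 53.1 and 29.7. Rad54l had 199, 268 and 177 in control and 89.2, 131 and 153 in Eed iKO (log2 -0.79 ± 0.41), and Xrcc3 had 707, 888 and 699 against 663, 610 and 434 (log2 -0.44 ± 0.25). Both of these were lower in each Eed iKO library and short of the threshold. Xrcc2 had 207, 414 and 200 against 299, 469 and 363, with overlap. Among the remaining members, Mre11a (log2 0.28), Rad50 (0.13), Rbbp8 (-0.25), Exo1 (0.11), Blm (-0.52), Eme1 (0.57), Polq (0.33), Palb2 (-0.26), Brip1 (0.15) and H2afx (0.31) had overlapping libraries. Exo1, from 40.1 to 281 within the control group alone, had an interval of -1.41 to 1.62.

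Proliferation markers varied among the libraries labelled Eed iKO. Mki67 was at 6125, 6301 and 609 in replicates 1, 2 and 3, and at 639, 2543 and 928 in control. Top2a was at 3005, 2750 and 300 against 642, 755 and 256. Eed iKO replicates 1 and 2 were above the control libraries in both genes, and replicate 3 was within or below their range. Of the 12 proliferation markers 0 passed the test, with a median log2 fold change of 0.95 and 12 values above 0. Eed iKO replicate 3 was also the lowest of its group for 20 of the 33 members and, for Brca1, Rad51ap1, Rad54b and Fancd2, the nearest to control. The part of cycling cells in these member values was not tested. Melanocyte markers summed to 279 to 503 in control and 327 to 536 in Eed iKO, immune markers to 199 to 408 and 226 to 599, and fibroblast markers to 355 to 857 and 223 to 316, with 0 of each list passing the test. Interfollicular differentiation markers summed to 10541, 7742 and 39579 in control replicates 1, 2 and 3 and to 13158, 4444 and 57387 in Eed iKO, and sebaceous markers to 1592, 1170 and 4214 and to 2370, 1853 and 3992. Replicate 3 was the highest of each group in both lists, and the part of these cells in the member values was not tested.

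**Figure D4:**
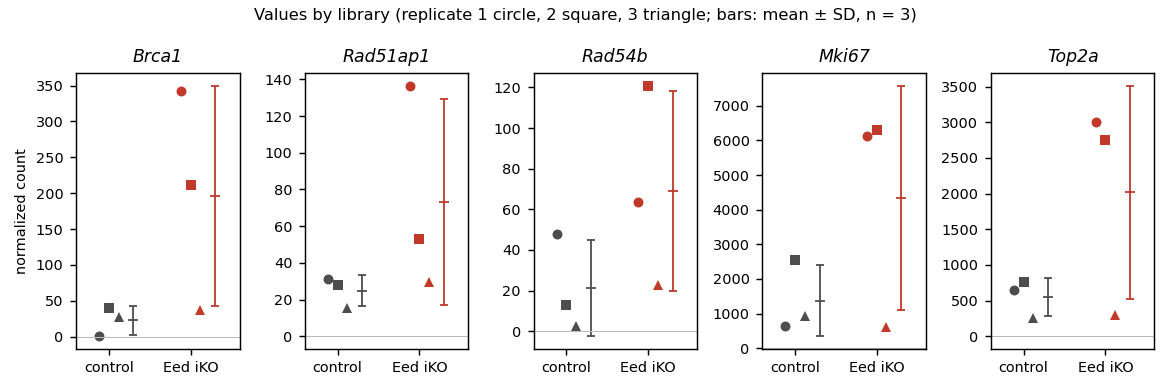
Normalized counts of Brca1, Rad51ap1, Rad54b, Mki67 and Top2a in each control and Eed iKO library, with the mean ± SD (n = 3) beside the points. Eed iKO replicate 3 (triangle) lies close to the control libraries in Brca1 (36.6), Mki67 (609) and Top2a (300).

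None of the neighbouring pathways had a gene at an adjusted p under 0.05 in the libraries labelled Eed iKO, with limma. At an unadjusted p under 0.05, 8.38% of all genes tested were higher and 6.33% lower. By that rule 3 of 39 genes passed in recombination and Fanconi (2 higher, 1 lower) and 3 of 20 in ATR and ATM signalling (3 higher). In end joining 4 of 15 passed (2 higher, 2 lower), in base excision 4 of 17 (3 higher, 1 lower) and in nucleotide excision repair 1 of 18 (higher).

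The comparisons share no library, and their values for the members were set side by side. The 10 members higher in anagen had a median log2 fold change of 0.62 in Eed iKO over control, with 10 of 10 above 0, and the other 23 had a median of 0.06 with 13 above 0. Of all genes tested in Eed iKO over control, 49.9% were above 0, and the share among all genes higher in anagen was not computed. Eme1, whose anagen call is not counted as support, is 1 of the 10, at 0.57. With 1 library left out, Brip1 fell to -0.19 (without Eed iKO replicate 2), Chek1 to -0.17 (without Eed iKO replicate 2) and Bard1 to 0.01 (without control replicate 3). Brca1 had the largest log2 fold change in each comparison (6.05 and 3.47) and Fancg, called in neither, the lowest in each (-0.85 and -1.30), with all libraries in the fit. Rad54b passed Brca1 in the second without control replicate 1 (2.98 against 2.02). Fanci was lower than Fancg in the first without telogen replicate 3, at -1.16. Across the 33 genes, which are not independent replicates, the log2 fold changes had a Pearson correlation of 0.72 and a Spearman correlation of 0.71. The 12 proliferation markers had log2 fold changes above 0 in both comparisons, and their part was not tested. Of the pairs above, the other ratios overlapped between control and Eed iKO, while the Brca1 to Brca2 ratio per kilobase was 0.0018, 0.0690 and 0.0612 in control and 0.631, 0.396 and 0.0915 in Eed iKO, without overlap. Control replicate 1 rests there on 1 read of Brca1.

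**Figure D5:**
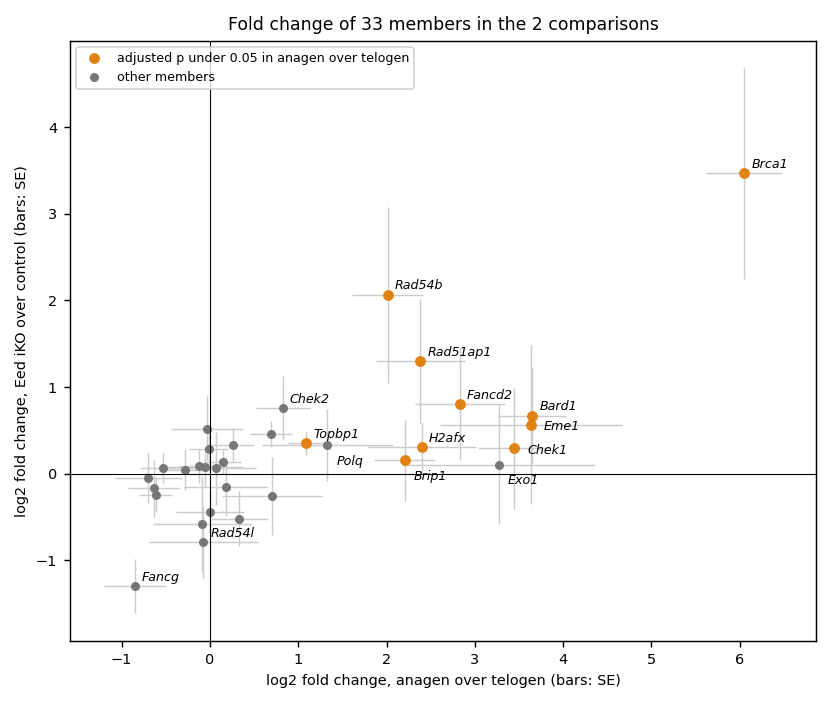
Log2 fold change of each member in anagen over telogen (horizontal) and in Eed iKO over control (vertical), with SE bars. The 10 members with an adjusted p under 0.05 in anagen (orange) all lie above 0 on the vertical axis with all libraries in the fit. Brip1 and Chek1 did not with 1 library left out, and Eme1 was tested in the hair cycle through its anagen libraries alone. Brca1 lies at 6.05 and 3.47 and Fancg, among the others, at -0.85 and -1.30.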

How the data were processed

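RNA was measured in 12 libraries of sorted HFSCs. The authors aligned reads to mouse transcripts of Gencode vM20 with Kallisto (0.42.5) and ran DESeq2 (version 3.11 in the submitters' processing notes, with build mm10). The deposited signal of each gene and library is a normalized count, the count divided by a DESeq2 size factor. The deposited log2 fold changes and standard errors, the deposited p-values and the deposited test score (Wald statistic) hold the authors' own comparisons and were not used. Kits that do not mark strand were used.

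The design assumed either raw counts or normalized values, and since both tables are normalized, limma (3.58.1, R 4.3.3) with an intensity trend was run on log2(value + 1) in each table alone, after filterByExpr at a minimum of 10, with Benjamini-Hochberg adjustment and a threshold of 0.05. All 33 members passed the filter in both tables, and Eme1 passed through the anagen libraries alone in the hair cycle. In each library of the Eed iKO table, 100% of the values were whole multiples of a constant of that library (within 0.1 of a read). This gave 33269583 to 57063586 reads per library for DESeq2 (1.42.0) and edgeR (4.0.16, 5 genes at an adjusted p under 0.05). Of the hair cycle values, 19.0% to 32.5% were whole, so depth is unknown. Alternatives were a pseudocount of 0.1, no filter, TMM scaling, the replicate number as a block, and each library left out.

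The members and lists were chosen with earlier results of these data known. All members are named, and genes of other lists only with an adjusted p under 0.05 and no overlap, at most the 4 largest and 2 smallest a list, with Mki67, Top2a and Eed always named. The gene pairs were chosen after the values were seen. Per the study, control and Eed iKO libraries were biological replicates from at least 2 litters. For the hair cycle the study gives more animals than libraries and no source used here says whether animals were pooled, so there p-values measure the spread between these samples. Positions and exon overlap are from GENCODE vM21 (GRCm38). Exon bases opposite other annotated exons also made up 13.7% of Fancl, 10.7% of Eme1, 10.5% of Fanca and 10.2% of H2afx. 1 further list of repair genes is not reported here.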

Additional observations from a re-analysis of the deposited data

How the results depend on the processing

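In anagen over telogen, the count of 10 changed members became 9 with a pseudocount of 0.1, 9 without the filter, 10 with TMM scaling and 11 with the replicate block. It ranged from 5 to 11 with each library left out, with 5 to 11 higher and 0 to 1 lower. The median of the members ranged from 0.17 to 0.47. Same-numbered libraries correlated at -0.03, -0.07 and -0.03 in the hair cycle and 0.04, 0.07 and 0.19 in the Eed iKO table after group means were removed. The numbers were not taken to pair the samples. The 0.19, for replicate 3, was above the values of differently numbered libraries of that table, from -0.15 to 0.08. An effect shared by the libraries numbered 3 was not tested. In Eed iKO over control, the replicate block gave 1 changed member (Fancg, lower, adjusted p = 0.0388) and 424 genes in all, against 4 without it. The thresholds of the methods gave 1 changed member (Brca1). DESeq2 on recovered reads gave 2 changed members, 1 higher and 1 lower, and 679 genes in all, against 5 with edgeR. With each library left out, 0 to 1 members changed (1 lower without Eed iKO replicate 3, with 188 genes in all), and 2 to 5 had an unadjusted p under 0.05. The causes were not tested.

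Some members with small differences changed sign, none of them past the threshold. DESeq2 and edgeR gave -0.25 for Exo1 in both and -0.13 for Fancl in both, in Eed iKO over control. With each library left out, log2 fold changes in Eed iKO over control ranged from -0.0853 to 0.198 for Brca2, -0.48 to 0.15 for Palb2, -0.19 to 0.47 for Brip1, -0.56 to 0.83 for Exo1, -0.397 to 0.0004 for Fanca, -0.48 to 0.19 for Fancc, -0.20 to 0.57 for Fancl, -0.0084 to 0.175 for Fancm, -0.29 to 0.11 for Fanci, -0.0226 to 0.292 for Atm, -0.0118 to 0.187 for Atr and -0.17 to 1.01 for Chek1. In anagen over telogen they ranged from -0.47 to 0.01 for Brca2, -0.45 to 0.66 for Rad54l, -0.28 to 0.27 for Xrcc2, -0.33 to 0.24 for Xrcc3, -0.123 to 0.0932 for Mre11a, -0.23 to 0.61 for Fanca, -0.40 to 0.47 for Fancb, -0.34 to 0.44 for Fancl, -0.50 to 0.23 for Fancm and -0.283 to 0.0041 for Atm. With 3 libraries a group, and an unknown depth in the hair cycle table, small differences of genes with few reads were not detectable.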
